A study of Danio rerio with 3 samples.

Results

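miR-9 is a microRNA (miRNA) family of the vertebrate nervous system, and its sequences were followed here in whole zebrafish larvae whose parents had been kept in antibiotics. The family was taken as every sequence of the table of all 3 libraries whose name carries the family number 9 exactly, whatever the gene copy, arm, species prefix or end variant, with repeated rows of the same sequence counted once under the most abundant row. This gave 23 sequences (38 rows) of the 1202 distinct sequences in the table. The larvae were wild type, of the AB strain, 7 days after fertilisation, and whole bodies were used. The control library came from larvae of unexposed parents (0 mg/L), the low-dose library from larvae whose parents had 6.25 mg/L, and the high-dose library from larvae whose parents had 12.5 mg/L. The agent mixed 6 β-diketone antibiotics (DKA) in equal parts, namely ofloxacin, ciprofloxacin, enrofloxacin, doxycycline, chlortetracycline and oxytetracycline. The labels date the start of exposure to 6 hours after fertilisation and its length to 90 days, and they name no exposure of the larvae themselves. With 1 library per dose nothing below could be tested against replicates, and "higher" and "lower" describe these libraries.

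In the embryo and larva, miR-9 is made by neural progenitors lining the brain ventricles, and it is known for timing the step from dividing progenitor to neuron. In zebrafish its 5p arm represses her genes, which keep progenitors undifferentiated, along with genes that drive neuronal differentiation, and it is missing at the boundary between midbrain and hindbrain. A miRNA hairpin yields a 5p and a 3p strand, and each recognises targets mainly through its seed, bases 2 to 8 from its 5′ end. The 5p and 3p strands of miR-9 have different seeds and so different targets. The 3p strand, long written miR-9*, is known in human and mouse cells for targeting parts of chromatin complexes that silence or remodel neuronal genes.

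Over the 1202 distinct sequences, each counted once, the libraries summed to 4534557 reads in control, 5099264 at the low dose and 6041242 at the high dose. Percents of all reads are of these sums, not of all reads sequenced. miRNAs of muscle, liver, neurons, epithelium, red blood cells, pancreas, endothelium and cartilage were present in each library. The miR-9 family took 5.41% of all reads in control (95% exact binomial interval 5.39 to 5.43), 5.78% at the low dose (5.76 to 5.80) and 5.51% at the high dose (5.49 to 5.53). All intervals cover counting error of reads only and say nothing of the spread between larvae. They count each read as separate, and are too narrow as far as reads are PCR copies of the same molecule. In whole larvae, fewer miR-9 cells and less miR-9 per cell cannot be told apart.

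Of the 23 sequences, 10 had a mean of at least 10 normalised reads, 5 from each arm, and these carry the results. The 5p forms are shown first because they share the seed CTTTGGT, in capitals in the first line, and differ only at their ends. A change such as T1G gives the annotated base, then its place in the read counted from 1 at the 5′ end, then the base that was read. In the other lines the changed base is in capitals. The table writes T for U, and the letters, case aside, are those the authors deposited.
miR-9-5p, 1 nt short at the 3′ end: tCTTTGGTtatctagctgtatg
miR-9-5p with A23T: tctttggttatctagctgtatgT
miR-9-5p with A23C: tctttggttatctagctgtatgC
miR-9-5p 1 nt short with G22T: tctttggttatctagctgtatT
miR-9-5p with T1G: Gctttggttatctagctgtatga
The 4 changed forms thus keep the whole seed. The A23T and A23C forms equal the short form with a T or a C added at its 3′ end, and the G22T form equals a read 2 nt short with a T added. The annotated 5p strand of 23 nt, as rebuilt from the names, was not among the 23 family sequences, so shares below are of the forms listed.

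The 3p forms show how the gene copies differ. Zebrafish has 7 miR-9 hairpin genes (RefSeq names, GRCz12tu), and the names in the table distinguish 3 annotated 3p strands, miR-9-3p, miR-9-4-3p and miR-9-7-3p. Undoing the marks in the names rebuilt each of the 3 annotated strands, with the 2 or 3 names available for each giving the same sequence. Counted from the annotated 5′ end, miR-9-7-3p differs from miR-9-3p by T11G, and miR-9-4-3p differs from it by T11G and A19T, so positions 11 and 19 of the annotated strand tell the copies apart and are in capitals here.
deposited as miR-9-3p with T11G and A19T, 1 nt longer: taaagctagaGaaccgaaTgta
deposited as miR-9-3p with T11G, 1 nt longer: taaagctagaGaaccgaaAgta
deposited as miR-9-7-3p with G11T: taaagctagaTaaccgaaAgta
deposited as miR-9-4-3p with G12T and T20A, 1 nt longer at the 5′ end: ataaagctagaTaaccgaaAgt
deposited as miR-9-7-3p with G11T, 1 nt longer: taaagctagaTaaccgaaAgtat
The name deposited as miR-9-4-3p also marks 1 nt less at the 3′ end. All 5 forms carry a substitution in their deposited name, yet each holds an annotated strand of the family without any change. The first holds miR-9-4-3p (whose last base the names did not resolve), the second is miR-9-7-3p, and the other 3 hold miR-9-3p with 1 or 2 extra nt at an end. By name, nearly all 3p reads were substituted, 99.9929% in control, 99.9951% at the low dose and 99.9989% at the high dose. Read against the rebuilt strands, 0.0146% of 3p reads in control, 0.0119% at the low dose and 0.0607% at the high dose held none of the 3. They are therefore called below by the strand they hold, the miR-9-4-3p, miR-9-7-3p and miR-9-3p kinds. Since identical strands can come from several hairpins, a kind is not a single gene.

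The seed AAAGCTA is shared by 4 of these 5 forms. The read with 1 more nt at its 5′ end has the seed TAAAGCT instead, which moves the seed by 1 base.

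The dominant strand was the short miR-9-5p. It had 202725 normalised reads in control, 205556 at the low dose and 137620 at the high dose, and ranked 7, 8 and 8 among all sequences in that order. It was thus close to control at the low dose and 1.47-fold lower at the high dose (log2 ratio -0.56, ratio 0.679, counting interval 0.674 to 0.683). Against the low dose it was 1.49-fold lower at the high dose. It stayed lower at the high dose than in control with reads scaled to equal totals (-0.24) or by the median of ratios (-0.68), while its small ratio at the low dose (0.02) turned to -0.06 under the median of ratios. The A23T form followed it downward in part, with 31622 in control, 27695 at the low dose and 24703 at the high dose, a log2 ratio of -0.36 at the high dose over control (-0.04 with equal totals).

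The other changed 5p forms went the other way at the high dose. The T1G form had 1300 normalised reads in control, 1212 at the low dose and 4119 at the high dose, 3.17-fold higher at the high dose than in control (interval 2.97 to 3.38). The G22T form had 1385, 1347 and 3825 in the same order of doses, 2.76-fold higher at the high dose than in control (2.59 to 2.94). At the low dose over control their log2 ratios were -0.10 (T1G) and -0.04 (G22T). The A23C form had 2769 in control, 2564 at the low dose and 3418 at the high dose, which is 1.23-fold higher at the high dose than in control (1.17 to 1.30).

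**Figure D1:**
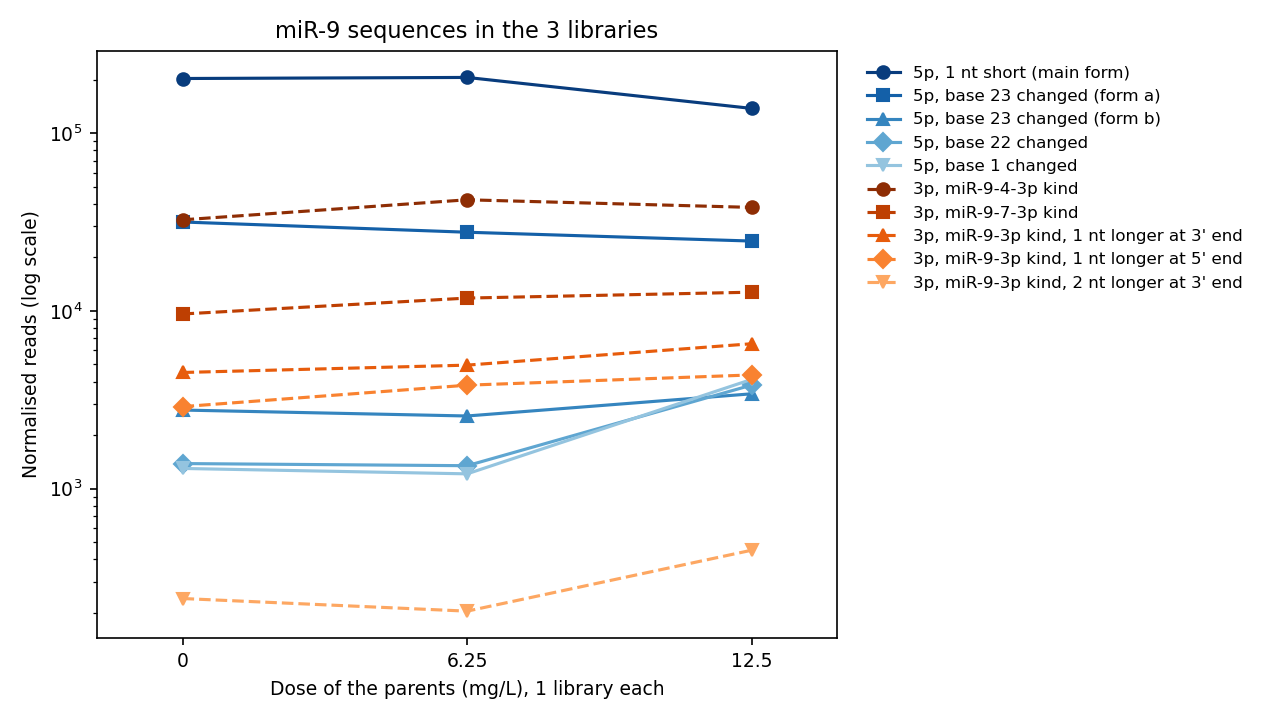
Normalised reads (log scale) of the 10 miR-9 sequences with a mean of at least 10, by dose of the parents in mg/L, with 1 point per library. Solid blue lines are 5p forms, where A23T is form a and A23C is form b, and dashed orange lines are 3p forms; the short 5p form drops to 137620 at the high dose while the forms changed at base 1 and base 22 climb to 4119 and 3825.

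Within the 5p reads, which no scaling can alter, the short form made up 84.5% in control, 86.2% at the low dose and 79.2% at the high dose. The A23T form made up 13.2%, 11.6% and 14.2% in the same order. The T1G form made up 0.542% in control (exact binomial interval 0.511 to 0.575), 0.508% at the low dose (0.480 to 0.538) and 2.37% at the high dose (2.31 to 2.43). The G22T form made up 0.577%, 0.565% and 2.20%, and the A23C form 1.15%, 1.08% and 1.97%, in the order of doses. All substituted 5p reads together were 15.5% in control, 13.8% at the low dose and 20.8% at the high dose. The high-dose library therefore held the largest share of each of the 4 changed forms.

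Other miRNAs give the background for these forms. At the high dose against control, 2 of the 10 miR-9 sequences (T1G and G22T) passed 2-fold upward and 0 downward, beside 10.8% upward and 4.25% downward among the 471 sequences with a mean of at least 10. With equal totals 3 of the 10 passed upward, the form of the miR-9-3p kind 2 nt longer at the 3′ end being added (log2 ratio 1.22), and over all 471 sequences 86 passed upward and 10 downward in place of 51 and 20. Of the 124 substituted sequences of that set 28.2% passed 2-fold upward and 1.61% downward, and of the 347 without a substitution 4.61% and 5.19%. Of 37 substituted sequences of other families changed at read position 1 to 8, 20 were at least 2-fold higher at the high dose, with a median log2 ratio of 1.44. Of the 5 changed at position 1 itself, 2 were, with log2 ratios from -0.83 to 3.44. The only other sequence of that set with T1G, a form of miR-18b-5p, had 5.70 in control, 12.8 at the low dose and 42.7 at the high dose. Of 16 sequences of other families whose last base was changed to T, 6 were at least 2-fold higher, with a median log2 ratio of 0.06. In 4 sequences of other families an annotated G was read as T at the last base of the read. Of these, 2 were at least 2-fold higher, and the log2 ratios ran from -0.46 to 4.96. The highest was a scarce miR-152 form with a second change, at 4.81 normalised reads in control. The others carried this change alone, with log2 ratios of -0.46 (miR-152), -0.12 (miR-430a-3p) and 1.20 (miR-430c-3p). Substituted sequences changed at position 1 to 8 were thus often higher in the same library, while those with the kind of change of the G22T form went both ways.

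Reads with an undetermined base (N) were also higher there. They made up 0.00546% of all reads in control, 0.00494% at the low dose and 0.0207% at the high dose (interval 0.0196 to 0.0219). A scarce miR-9-7-3p form with T1N was among them, with 1.85 normalised reads in control, 2.32 at the low dose and 21.2 at the high dose. These reads overlap with the substituted sequences above. Of the 37 sequences of other families changed at position 1 to 8, 11 held an N, and 8 of these 11 were at least 2-fold higher at the high dose. The part of base-calling in the higher T1G and G22T reads was not tested.

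**Figure D2:**
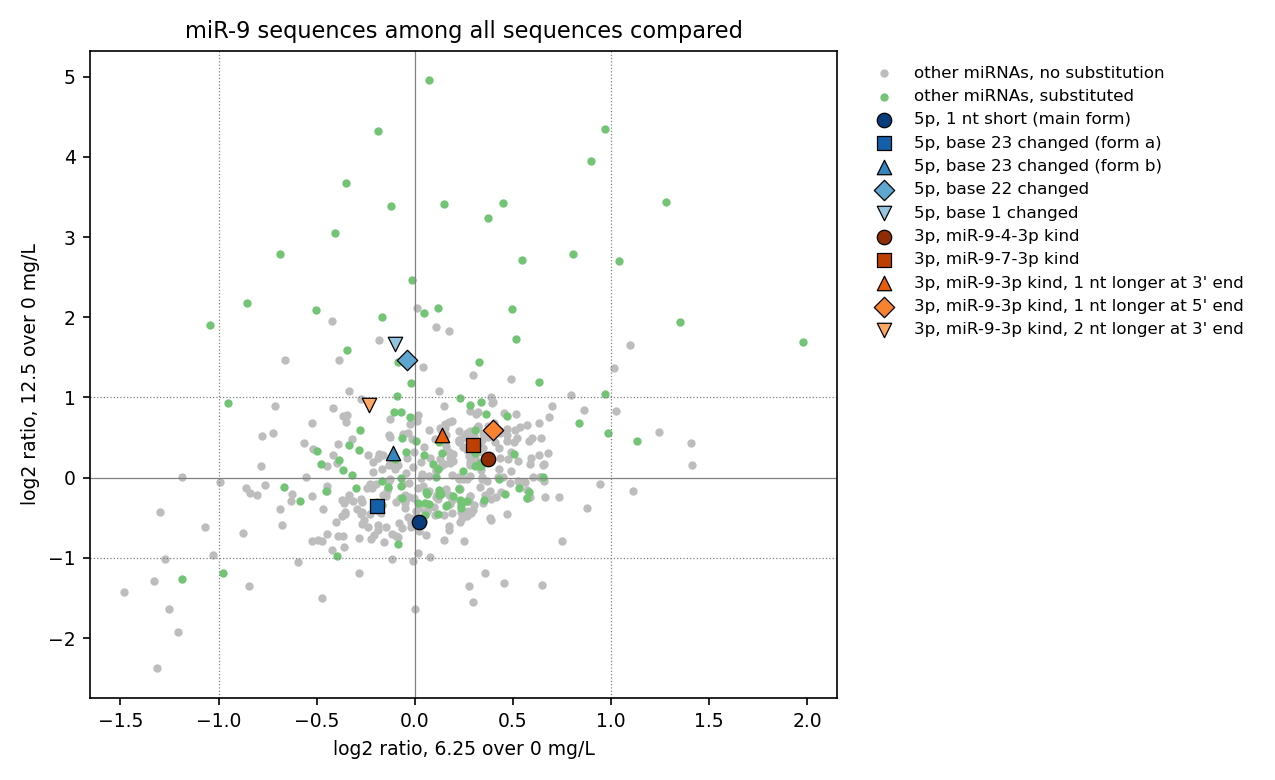
Log2 ratio at the low dose over control (x axis) and at the high dose over control (y axis) for the 471 sequences compared, 1 point per sequence, with dotted lines at 2-fold. Large symbols are the 10 miR-9 sequences, of which those changed at base 1 (1.66) and base 22 (1.47) lie above the upper dotted line with many other substituted sequences (green). Both axes share the control library.

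Each of the 3 kinds of 3p strand was higher at both doses than in control. The miR-9-4-3p kind, the most abundant, had 32516 normalised reads in control, 42154 at the low dose and 38198 at the high dose. Its ratio was 1.30 at the low dose over control (interval 1.28 to 1.32) and 1.17 at the high dose over control (1.16 to 1.19). The miR-9-7-3p kind had 9606 in control, 11805 at the low dose and 12740 at the high dose, with ratios of 1.23 and 1.33 at the lower and higher dose. The miR-9-3p kind, summed over its 3 forms, had 7639 in control, 8980 at the low dose and 11350 at the high dose, with ratios of 1.18 (1.14 to 1.21) and 1.49 (1.44 to 1.53). The miR-9-4-3p kind was thus highest at the low dose under the authors' scaling (log2 ratio -0.14 at the high over the low dose, but 0.14 with equal totals), while the other kinds were highest at the high dose.

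The mix of 3p copies moved with this. The miR-9-4-3p kind made up 65.3% of 3p reads in control (64.9 to 65.8), 67.0% at the low dose (66.6 to 67.3) and 61.3% at the high dose (61.0 to 61.6). The miR-9-7-3p kind made up 19.3%, 18.8% and 20.4%, and the miR-9-3p kind 15.3%, 14.3% and 18.2%, in the order of doses. The intervals of these shares are narrow because each share rests on 42190 to 87908 reads of 3p. The spread between larvae of 1 dose was not measured.

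Within the miR-9-3p kind, the form 1 nt longer at the 3′ end had 4504 normalised reads in control, 4954 at the low dose and 6535 at the high dose. The form with the moved seed had 2894, 3821 and 4364 in the order of doses. It made up 37.9% of reads of its kind in control, 42.6% at the low dose and 38.4% at the high dose. The form 2 nt longer at the 3′ end was scarce, with 241 in control, 205 at the low dose and 451 at the high dose. Among the 5 forms of the 3p arm with a mean of at least 10, it had the highest ratio at the high dose over control. Its log2 ratio was 0.90 at the high dose over control, and at the high over the low dose it was 2.20-fold higher (1.88 to 2.60). At the high dose all 5 forms of the 3p arm were above control, under the authors' scaling, equal totals and the median of ratios alike. At the low dose the longest form was the exception, below control with a log2 ratio of -0.23.

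Set side by side, the 2 arms of miR-9 already differed at the low dose and went opposite ways at the high dose. The 5p forms summed to 239815 normalised reads in control, 238395 at the low dose and 173716 at the high dose, and the 3p forms to 49770, 62947 and 62326. At the low dose over control the log2 ratio was -0.01 for 5p and 0.34 for 3p. At the high dose over control it was -0.47 for 5p (ratio 0.724, 0.720 to 0.729) and 0.32 for 3p (ratio 1.25, 1.24 to 1.27). At the high over the low dose it was -0.46 for 5p and -0.01 for 3p. With equal totals the log2 ratios at the high dose over control were -0.14 for 5p and 0.65 for 3p, and with the median of ratios -0.58 and 0.21. These comparisons share libraries and are not independent of each other.

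Summed miRNAs of several tissues also differed between these libraries. At the high dose over control the ratio was 0.696 for liver (miR-122), 0.716 for red blood cells (miR-144 and miR-451), 0.812 for epithelium (miR-200 and miR-205) and 0.847 for cartilage (miR-140). It was 0.942 for pancreas (miR-216 and miR-217), 1.03 for endothelium (miR-126), 1.05 for muscle (miR-133) and 1.43 for neurons (miR-124). The 8 sums at the low dose over control ranged from 0.894 for epithelium to 1.31 for liver, with 1.30 for neurons. For the miR-9 arms it was 0.724 (5p) and 1.25 (3p) at the high dose over control. Some tissue sums joined arms that moved apart. Zebrafish-named miR-144 5p had 2982 normalised reads in control and 1809 at the high dose, while its 3p had 304 and 540. Likewise miR-124 3p had 10007 and 15737, while its 5p had 2776 and 2551. The red blood cell sum was 3287 in control and 2352 at the high dose. Nearly all of it was miR-144, mostly its 5p arm, and miR-451 added almost nothing. The neuron sum rests on miR-124 alone. Of 17 families known from nervous tissue, miR-124 among them, 11 were above control at the high dose and 6 below. The part of tissue make-up in the miR-9 ratios was not tested.

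The share of 3p in all miR-9 reads does not depend on scaling. It was 17.2% in control (exact binomial interval 17.0 to 17.3), 20.9% at the low dose (20.7 to 21.0) and 26.4% at the high dose (26.3 to 26.6). There were 4.82 reads of 5p for each read of 3p in control, 3.79 at the low dose and 2.79 at the high dose. The share thus stood in the order of the doses in these 3 libraries.

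**Figure D3:**
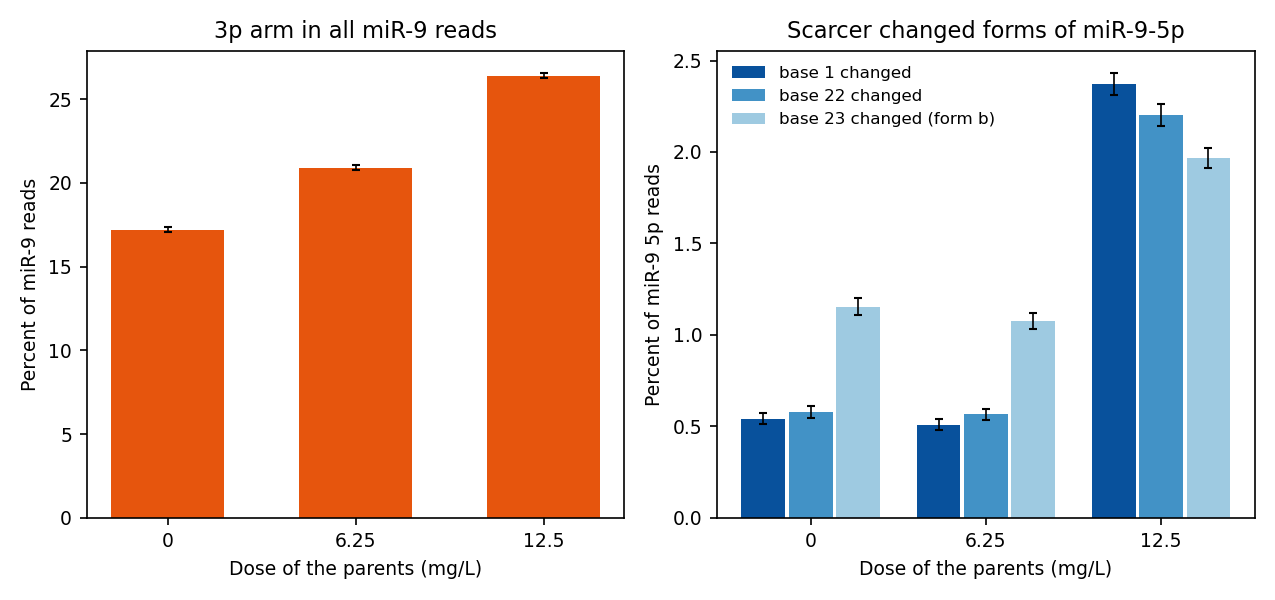
Left, percent of 3p among all miR-9 reads, and right, percent of 3 changed forms among miR-9 5p reads (base 23, form b, is A23C), by dose of the parents in mg/L. Bars are the value of 1 library each and error bars the 95% exact binomial interval of its reads; the 3p share is 17.2, 20.9 and 26.4%, and the base 1 form is 0.542% in control, 0.508% at the low dose and 2.37% at the high dose.

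A change of arm balance was not particular to miR-9. Among 49 zebrafish-named families with a mean of at least 100 normalised reads on each arm, the change of log2(3p/5p) at the high dose over control was 0.79 for miR-9, with a median of 0.16 and a range from -1.20 to 2.92. Families with a change at least as high numbered 3 with miR-9 itself, the others being miR-206 of muscle (2.92) and miR-144 of red blood cells (1.55). The miR-206 value rests mainly on a 3p form of miR-206 substituted within its seed, whose own log2 ratio was 3.38. The 3p reads of miR-206 summed to 151 normalised reads in control and 1587 at the high dose. Counting both directions, 7 of the 49, miR-9 included, had a change at least as large. In the signed order the neuronal miR-124 came after miR-9, at 0.78. At the low dose over control the change was 0.35 for miR-9, and 14 of the 49 families had one at least as high.

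**Figure D4:**
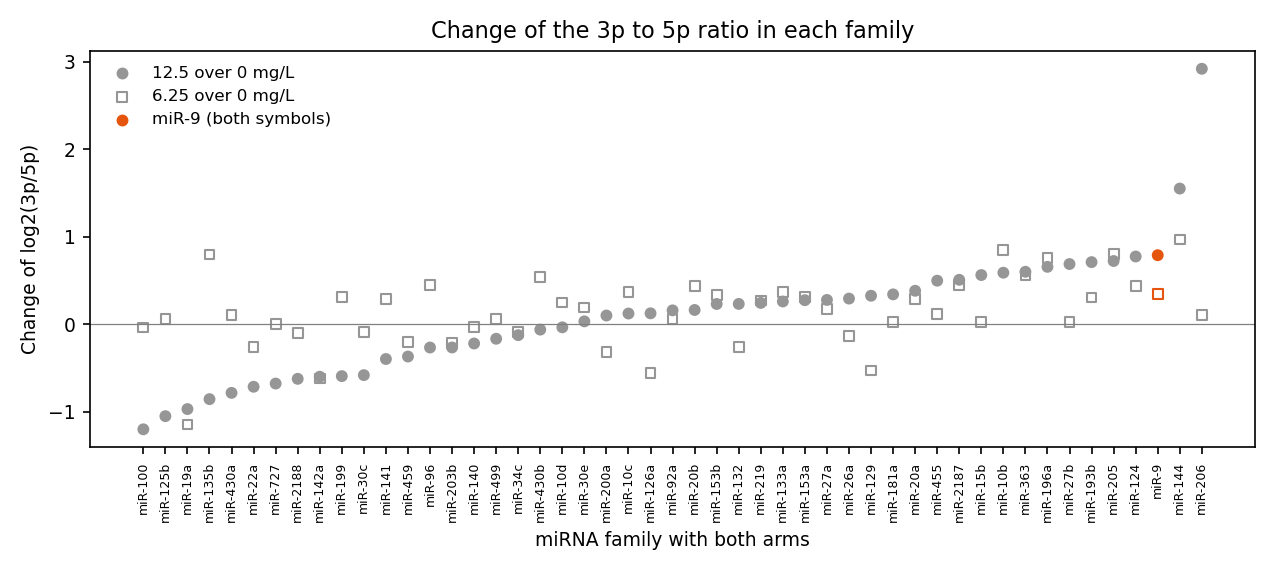
Change of log2(3p/5p) in each of 49 miRNA families with both arms, ordered by the value at the high dose over control (filled circles), with the value at the low dose over control as open squares. miR-9, in orange, has 0.79 and 0.35; only 2 of the 49 families lie above it at the higher dose.

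The other comparisons were counted in the same way. At the low dose against control, 0 of 10 passed 2-fold upward and 0 downward, beside 2.55% higher and 2.55% lower among all 471. The lowest log2 ratio of the 10 was -0.23 and the highest 0.40. At the high against the low dose, 3 of 10 passed upward and 0 downward, beside 11.0% and 3.40% among all 471. These were the T1G form (3.40-fold), the G22T form (2.84-fold) and the longest form of the miR-9-3p kind. The median log2 ratio of the 10 was 0.47 at the high dose over control, beside 0.08 over all 471, and 5 of the 10 are 3p forms. All but the short miR-9-5p are substituted by name. The median was 0.31 over the 124 substituted sequences and 0.004 over the 347 without a substitution. A median weighs scarce and abundant forms alike, and the summed miR-9 family had -0.30.

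The remaining 13 family members were scarce. Their highest value was 21.2 normalised reads, in the high-dose library, and in control and at the low dose none passed 9.19. Of these, 9 carried rat names of miR-9b, for which up to 9.19 normalised reads were found, and 2 of them had no read in any library. The most abundant, miR-9b-5p with 1 more nt at the 5′ end and 2 more at the 3′ end, had 4.13 normalised reads in control, 9.19 at the low dose and 4.96 at the high dose. The other 4 were substituted forms of zebrafish miR-9, of which 3 had 1.26 to 2.32 normalised reads in control and at the low dose and 15.0 to 21.2 at the high dose. One was the T8A and G18A form of miR-9-5p, which has the changed seed CTTTGGA. At this depth no difference of the miR-9b sequences between doses was detectable.

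Sequences with the pattern most like the short miR-9-5p were sought among 188 other unsubstituted zebrafish-named sequences with a mean of at least 100. Likeness was the distance between the pairs of log2 ratios (the low dose over control and the high dose over control), so it rests on 3 libraries. Nearest were a 5′ product of the mir-728 hairpin (distance 0.06), miR-181a-5p 1 nt short (0.07), miR-148 (0.09), miR-10c-5p (0.10) and miR-181a-5p (0.11). The short miR-181a-5p had 131346 normalised reads in control, 129417 at the low dose and 85434 at the high dose. For the miR-9-4-3p kind the nearest were miR-205-3p (0.06), miR-375 (0.06), miR-15c (0.07), miR-27b-3p 1 nt short (0.08) and a form of miR-455-2-5p (0.10).

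Other miRNA families known from nervous tissue were set beside miR-9, from a list of 18 of which 17 had sequences with a mean of at least 10. Summed over forms, the miR-9 family had a log2 ratio of -0.30 at the high dose over control, and of the 17 other families 11 were above 0 and 6 below. Among the 11, miR-183 rests on 1 scarce sequence, with 22.4 normalised reads in control and 45.4 at the high dose. With equal totals 14 of the 17 families were above 0 and 3 below, since miR-138, miR-218 and miR-135 changed sign. With the median of ratios 8 were above 0 and 9 below, since miR-132, miR-34 and miR-129 changed sign. Above 0 were miR-124 of neurons (0.52), miR-128 (0.68) and miR-137 (0.35), while miR-219 of myelin-forming glia (-0.43), miR-7 (-0.84) and miR-181 (-0.66) were below. These 6 named families kept their sign under each scaling. With equal totals every such ratio shifts up by 0.32, which puts miR-9 as a whole at 0.03, while the median of ratios puts it at -0.41. At the level of sequences, 11 of 85 on the list passed 2-fold upward and 1 downward at the high dose over control, with a median of 0.11. These are 12.9% upward and 1.18% downward, beside 10.8% and 4.25% of all sequences. Without substituted sequences, 7 of 60 on the list passed upward and 1 downward, with a median of 0.18. Beside them, 16 of all 347 sequences without a substitution passed upward and 18 downward, with a median of 0.004. At the low dose over control, 1 of 85 (1.18%) passed upward and 0 downward, beside 2.55% upward and 2.55% downward of all sequences. The median was 0.05 on the list and 0.11 over all sequences.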

How the data were processed

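Small RNAs of 3 libraries of whole larvae, 1 per dose, were sequenced as single-end reads of 36 bp on an Illumina HiSeq after TruSeq small RNA preparation, per the labels' protocols. Zv9 is the build per the submitters' processing notes; for the aligner, database release and counting rule, the sources used here give none. The deposited raw columns hold estimated counts (expected counts) per sequence, 78.2% of them whole (tolerance 1e-09), and were rounded for intervals only. The normalised columns deposited by the authors are a signal equal to the count times 1 factor per library (1.18 at 0 mg/L, 1.02 at 6.25 mg/L, 0.709 at 12.5 mg/L). The p-values, ratio (fold) and log2 fold columns deposited by the authors compare single libraries and were not used; the 38 miR-9 rows have the same values in all 4 tables.

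Sequences repeated in several rows were kept once, and 1 line without values in each table was left out. Log2 ratios used the normalised reads with a pseudocount of 1, and 2-fold was a fixed size rule. Ratio intervals are 95% exact (Clopper-Pearson) intervals of the counts. Annotated strands were rebuilt by undoing the end and substitution marks of the deposited names. Names were given to all members with a mean of at least 10 normalised reads and to the 5 nearest neighbours of 2 strands; ratios were left out where neither library had more than 3 reads. The members and lists were chosen with earlier results of these data known. Python 3.11.15, NumPy 2.4.6, SciPy 1.17.1 and matplotlib 3.10.9 were used, and the ratio and interval code was tested on simulated data.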

Additional observations from a re-analysis of the deposited data

How the results depend on the processing

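Under the authors' scaling, equal totals and the median of ratios alike, 5p was lower and 3p higher at the high dose over control. Under equal totals the log2 ratios of 5p were 0.030 (the low dose over control), -0.14 (the high dose over control) and -0.17 (the high over the low dose), and those of 3p 0.38, 0.65 and 0.27. Under the median of ratios, which shifts ratios at the high dose over control by -0.12, they were -0.090, -0.58 and -0.49 for 5p and 0.26, 0.21 and -0.049 for 3p. The sign of 5p at the low dose over control and of 3p at the high over the low dose thus depends on the scaling. Of the 10 sequences, 1 changed sign with scaling at the low dose over control, 0 at the high dose over control and 2 at the high over the low dose. Without substituted sequences 5p had 0.020, -0.56 and -0.58; the 3p arm gives no value then, since only rat-named sequences with few reads are left. Summing all rows gave -0.50 and -0.49 for 5p at the high dose over control and over the low dose, and 0.30 and -0.040 for 3p. The 3p share was then 15.5% in control, 18.9% at the low dose and 24.2% at the high dose, and the substituted share of 5p 14.5%, 12.8% and 18.1%. Leaving out substituted 5p forms, chosen after seeing the data, gave 3p shares of 19.7%, 23.4% and 31.2%. Limiting 3p to reads that hold an annotated strand, also chosen after seeing the data, moved no value beyond counting error. With no filter on low values, 1, 5 and 6 of the 23 miR-9 sequences were at least 2-fold higher in the 3 comparisons. Lower were 0, 2 and 2 of the 23, and all added ones were scarce. Beside them, 116, 175 and 156 of all 1202 sequences were higher and 103, 122 and 116 lower.

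Counts over all 471 sequences with a mean of at least 10, in the same order of comparisons, were 12, 51 and 52 higher and 12, 20 and 16 lower. No filter gave, of 1202 sequences, 116, 175 and 156 higher and 103, 122 and 116 lower. A mean of 100 or more gave 3, 18 and 15 higher and 6, 6 and 4 lower. Leaving out substituted sequences gave 7, 16 and 19 higher. A pseudocount of 10 gave 3 higher at the low dose over control and 12 and 5 lower at the high dose over control and the low dose. Equal totals gave 86 higher and 10 lower at the high dose over control and 8 lower at the high over the low dose. No paired analysis was possible because each dose had 1 library and no test was made. Leaving out a replicate was not possible for the same reason.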
